A study of Mus musculus with 6 samples.

Results

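The translation initiation and elongation factors are the proteins that load ribosomes onto mRNA, find the start codon and carry the ribosome along the coding sequence. All protein-coding genes of the deposited table with a symbol beginning in Eif1 to Eif6, Eef1 or Eef2 were taken, apart from the Eif2ak kinases, which gave 83 of 56748 genes, or of 21970 protein-coding genes. They were compared in RNA-seq libraries of whole hearts, one heart each from 3 Pontin cTG and 3 WT littermate mice, to ask whether Pontin overexpression in cardiomyocytes changed their mRNA during hypertrophic stress. In Pontin cTG mice the α-myosin heavy chain promoter of the mouse, active in cardiomyocytes, drives human Pontin cDNA with a flag tag, and the WT controls lack the transgene. All 6 animals were males, aged 10 weeks when the infusion began, on a C57Bl/6 background, and all received angiotensin II (Ang-II), a peptide that raises blood pressure and drives cardiac hypertrophy, from a mini-osmotic pump over 14 days (daily dose 1.5 mg/kg BW). No group without Ang-II was analysed here, so that the values say nothing of the response to Ang-II itself. Whole heart tissue was sequenced, in which fewer cells of a type and less RNA per cell cannot be told apart.

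In initiation, eIF2 brings the initiator tRNA to the small ribosomal subunit and is recharged with GTP by eIF2B. The eIF4 proteins bind the mRNA cap and unwind the leader, and eIF3 is the large scaffold that joins the mRNA to the small subunit. The factors eIF1, eIF1A, eIF5 and eIF5B act in selecting the start codon and in joining the large subunit. In elongation, eEF1A delivers aminoacyl-tRNAs and eEF2 moves the ribosome by a codon. The enlargement of cardiomyocytes in hypertrophy goes with increased protein synthesis, which is why these factors are of interest in the stressed heart.

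Library totals were between 12436822 and 16888124 counts, and each Pontin cTG library was larger than each WT library. Pontin cTG replicate 2 stood apart, with a score of 50.9 on the first principal component (48.6% of the variance) against -23.1 to 16.2 in the other libraries, and counts are therefore also given without it. Summed markers of cardiomyocytes ran from 595700 to 718300 normalised counts and those of skeletal muscle from 2.24 to 16.3, the former high and the latter near 0, as the heart label requires. The mouse gene of Pontin, Ruvbl1, differed by 0.18 in log2 fold change (standard error, SE, 0.12), which is no measure of the human cDNA. Of the other marker lists, all 4 macrophage markers had lower means in Pontin cTG hearts, with 1 of 4 at an unadjusted p under 0.05 and sums of 1197 to 1674 normalised counts against 1694 to 2921 in WT. The part of this difference in the values of the translation factors was not tested.

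Of the 83 genes, 62 passed the filter on low counts and were tested. No count fell on 18 of the others in any library, which were the 16 numbered copies of Eif1ad, Eif4a3l1 and Eif4e1b. Eif4ebp3, Eef1akmt3 and Eif4a3l2 had 9, 7 and 3 counts over the 6 libraries. The factors together took 0.984%, 1.00% and 1.02% of the counts of the WT libraries against 1.07%, 1.02% and 1.08% of those from Pontin cTG. The lowest share from Pontin cTG and the highest from WT were nearly equal. Of the counts outside the mitochondrial genome the factors took 1.34%, 1.35% and 1.36% in WT against 1.40%, 1.35% and 1.46% in Pontin cTG. By that measure the groups overlapped, as Pontin cTG replicate 2 lay below WT replicate 3. Eef1a1, Eef1a2 and Eef2 alone held between 35.3% and 38.3% of the factors' counts.

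None of the 62 factors differed between Pontin cTG and WT hearts at an adjusted p under 0.05 (quasi-likelihood test of edgeR, adjusted by Benjamini-Hochberg over the 13888 genes tested), where the share of all genes called was 0.0%. At an unadjusted p under 0.05 in edgeR there was also no factor, against 2.05% of all genes. The number was 0 in DESeq2 and 3 in limma-voom with sample quality weights. For these methods the share of all genes was not computed, so their numbers cannot be read against the 2.05%. The log2 fold changes were small, between -0.34 (Eif5a2) and 0.27 (Eif1), and their median standard error was 0.14. Positive values were found for 42 factors and negative values for 20, with a median of 0.069, beside 50.2% positive values and a median of 0.0013 over all genes tested. In 8 of 62 factors each Pontin cTG library lay above each WT library, against 4.7% of all genes, and in 0 factors the reverse held, against 3.63% of all genes. The 8 factors were Eif3g, Eif3h, Eif3i, Eif3k, Eif1, Eif2d, Eef1d and Eef1akmt1. With 3 hearts against 3, such a separation by itself fixes the two-sided exact permutation test at p = 0.1, the smallest possible. That p therefore adds nothing to the separation.

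The leaning of the factors to positive values was carried unevenly by the libraries. Pontin cTG replicate 3 held the highest value of 24 of the 62 factors (38.7%, against 18.4% of all genes). Without Pontin cTG replicate 3, 38 factors had positive values and 24 negative ones, with a median of 0.037. Pontin cTG replicate 2 held the highest or the lowest value of 32 factors (51.6%, against 60.9% of all genes). Without that library, 45 factors had positive values and 17 negative ones, with a median of 0.071. Without it, 3 factors reached an unadjusted p under 0.05, Eif1, Eif4h and Eif3i, a share of 4.84% that was close to the 4.91% of all genes, and the smallest adjusted p of the 3 was 0.889. In 19 factors the 2 remaining Pontin cTG libraries then lay above the WT libraries, against 10.9% of all genes, and in 1 factor below, against 10.6%.

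**Figure D1:**
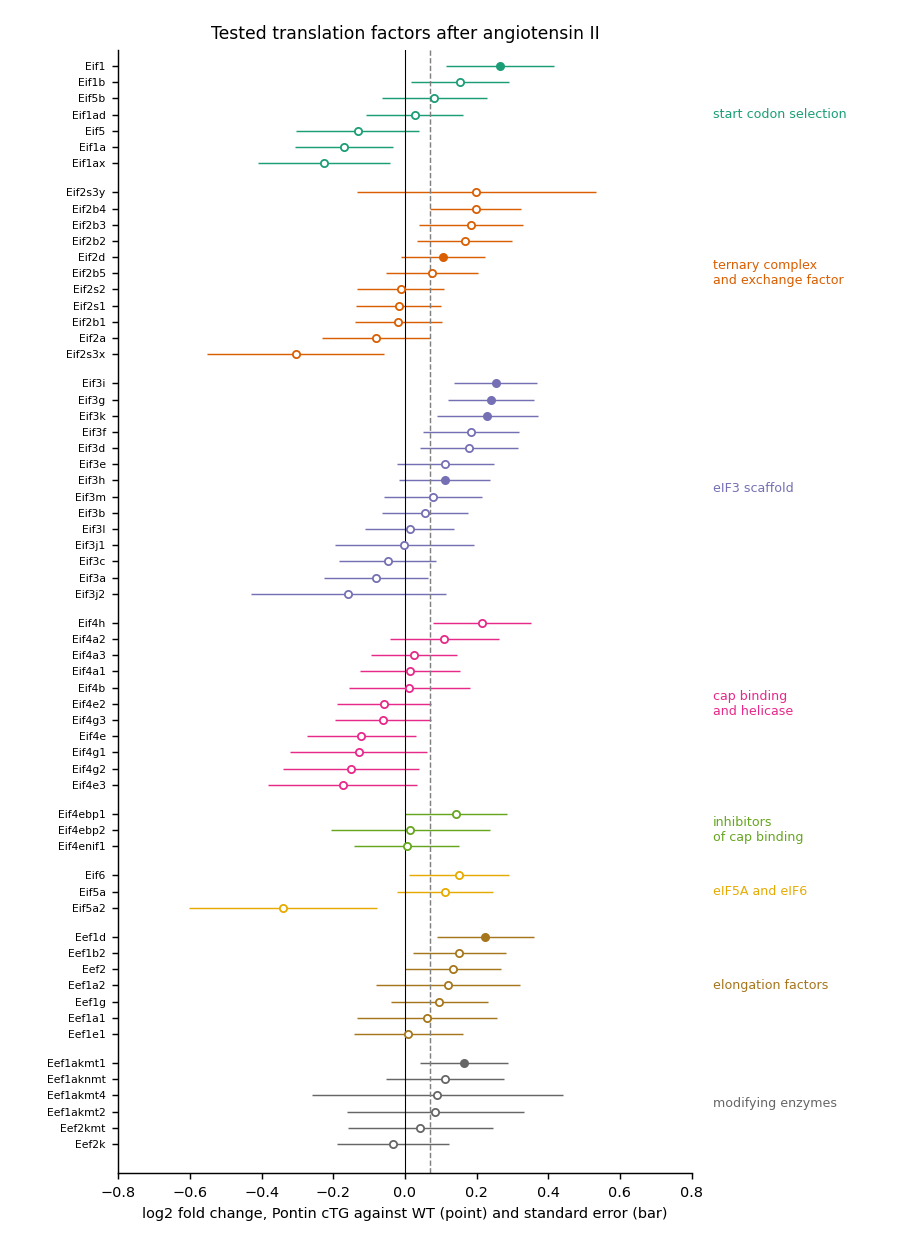
Log2 fold change of Pontin cTG against WT hearts (horizontal axis) for the 62 tested factors, by role. Points are the fitted values from edgeR and bars their standard errors; filled points mark the 8 factors in which the groups did not overlap, and the dashed line is the median of 0.069. No factor lies beyond -0.34 or 0.27.

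Many mRNAs of the translation machinery begin with a pyrimidine tract, the 5′ terminal oligopyrimidine (TOP) motif, through which growth signalling controls their translation. The annotated starts of the factors were searched for such a tract, a C followed by at least 4 bases that are each C or T on the transcribed strand. The RefSeq promoter table (GRCm38.p6) held 50 of the 83 factors. The base at an annotated start was itself a C followed by 4 such bases in 2 of 50 (4.0%), Eif3f and Eif2s3x, whose tracts also reached upstream of the start, beside 3.01% of the 27025 genes in the table and 22.0% of 59 genes of cytosolic ribosomal proteins. Within 10 bases of the start a tract was found in 16 of 50 (32.0%), beside 34.4% of all genes and 64.4% of the ribosomal protein genes. The tract of Eef1a1 also ran across the start, but the base at its start was not a C. The 30 bases around the start follow for Eif3f and Eif2s3x and for the 3 abundant elongation factors. The longest tract is in capitals where one began within 10 bases of the start.
Eif3f (chr7:108934400-108934429, plus strand): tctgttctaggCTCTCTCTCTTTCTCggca
Eif2s3x (chrX:94212637-94212666, minus strand): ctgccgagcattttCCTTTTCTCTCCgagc
Eef1a1 (chr9:78481710-78481739, minus strand): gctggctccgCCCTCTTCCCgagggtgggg
Eef1a2 (chr2:181157001-181157030, minus strand): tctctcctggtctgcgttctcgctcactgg
Eef2 (chr10:81176616-81176645, plus strand): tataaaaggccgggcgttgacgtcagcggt
In Eef1a2 and Eef2 no tract of this kind began within 10 bases of the start, which says only that these letters are not there. The 15 tested factors with a tract so placed had a median log2 fold change of 0.027, and the 34 without one had a median of 0.060. The 13 tested factors that the promoter table did not hold had a median of 0.11. The medians of the 15 and the 34 factors were smaller than the standard error of a single factor, which does not measure the spread of a median.

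The scaffold eIF3 supplied 14 of the 62 tested factors and held 4 of the 8 whose groups did not overlap. In these 4 each Pontin cTG library lay above each WT library, which held in 4.7% of all genes. Of the 14 eIF3 genes, 10 had positive and 4 negative log2 fold changes (median 0.094), and 0 passed the test. With the near-identical Eif3j1 and Eif3j2 summed, 10 of 13 were positive (median 0.11). The smallest p of all factors belonged to Eif3i, a WD-repeat subunit (ENSMUSG00000028798, chromosome 4, from 129591960 to 129600648 on GRCm38). Eif3i had 906, 954 and 961 normalised counts in the WT hearts, in the order of replicates 1 to 3, against 1110, 1137 and 1115 in Pontin cTG, the order used for all values by heart. The 6 values formed a pair of tight, separate groups. Its log2 fold change was 0.25 (SE 0.12), with an unadjusted p = 0.056 and an adjusted p = 0.999 in edgeR.

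Eif3g, which binds Eif3i in a module of eIF3 that acts in scanning, came second (ENSMUSG00000070319, chromosome 9, from 20894349 to 20898623). Its normalised counts were 564, 531 and 620.4 in WT hearts against 651, 683 and 690.4 in Pontin cTG, at a log2 fold change of 0.24 (SE 0.12). WT replicate 3 came close to the lowest Pontin cTG heart. Eif3k, a small subunit, had 797, 845 and 802 in WT hearts against 846, 1121 and 897 in Pontin cTG (log2 fold change 0.23, SE 0.14). Here the groups were narrowly separated, and Pontin cTG replicate 2 stood well above the rest. Eif3h, the most abundant subunit per kilobase (mean level 106 CPM per kilobase, where CPM are counts scaled to a common library size), had 2382, 2229 and 2330 in WT hearts against 2484, 2414 and 2595 in Pontin cTG. Its log2 fold change of 0.11 was below its standard error of 0.13.

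The remaining subunits overlapped between the groups. Eif3e, a subunit of the eIF3 core, had 1160, 1179 and 1251 normalised counts in WT hearts against 1276, 1147 and 1458 in Pontin cTG (log2 fold change 0.11, SE 0.14). Its highest value was in Pontin cTG replicate 3 and its lowest in Pontin cTG replicate 2. Eif3a and Eif3c, the pair of large subunits that hold the core together, had log2 fold changes of -0.081 and -0.049. The lowest log2 fold change in eIF3, -0.16 (SE 0.27), was that of Eif3j2. Its coding sequence is 99.2% identical to that of Eif3j1, so that reads may have been split between both genes, and its value is uncertain. Without Pontin cTG replicate 2, 11 of the 14 eIF3 genes had positive log2 fold changes (median 0.12). In 9 of 14 the remaining Pontin cTG hearts then lay above the WT hearts, against 10.9% of all genes. The median of the 14 eIF3 genes was 0.045 without Pontin cTG replicate 3 and 0.024 with the trend on gene length removed.

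**Figure D2:**
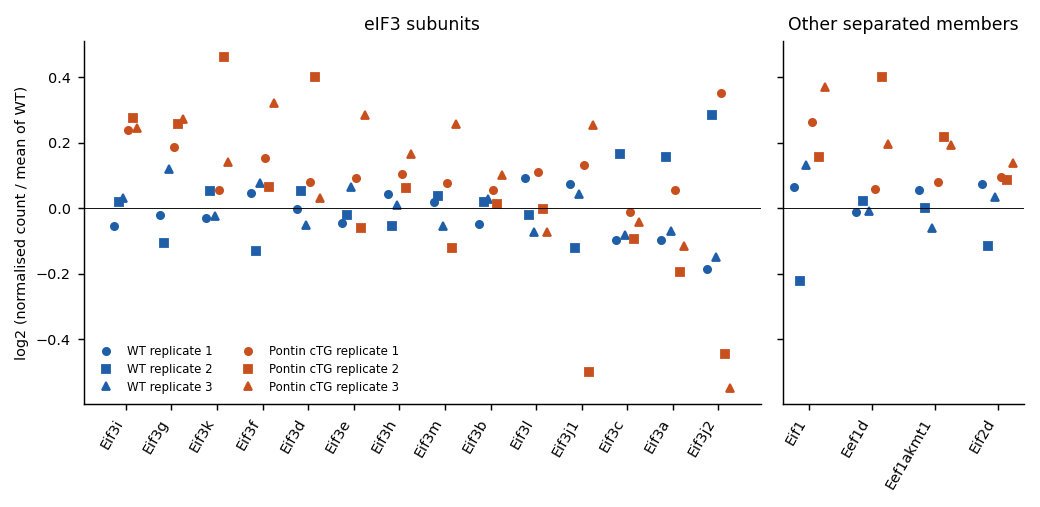
Log2 of the normalised count in each library divided by the WT mean (vertical axis) for the 14 eIF3 genes and for the other 4 factors whose groups did not overlap. Blue points are WT and orange points Pontin cTG hearts, with one shape per replicate number. Eif3i shows the cleanest separation, while Pontin cTG replicate 2 (orange squares) is the outermost point of Eif3k, Eif3d and Eef1d.

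Eef1a1 and Eef1a2 encode the alternative forms of eEF1A. Eef1a1 is used in most tissues, and Eef1a2 takes over in heart, skeletal muscle and neurons after birth. Eef1a2 (chromosome 2, from 181147653 to 181157014) had the highest level of all factors, at a mean level of 636 CPM per kilobase, followed by Eef2 at 463, Eef1a1 at 364 and Eif1 at 209. These levels rest on the gene lengths of the deposited table. Per kilobase of the GENCODE M21 transcript with the longest coding sequence, Eef1a2 was again at 636, but Eef1a1 (506) came before Eef2 (498). The coding sequences of Eef1a1 and Eef1a2 were 79.9% identical over 1389 aligned columns.

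Eef1a1 had 11730, 15170 and 10610 normalised counts in WT hearts against 10840, 15820 and 12510 in Pontin cTG. The values of replicate 2 were the highest in both groups. Eef1a2 had 18590, 14380 and 20730 in WT hearts against 21980, 14810 and 21580 in Pontin cTG, and here the replicate 2 libraries were the lowest. The ratio of Eef1a2 to Eef1a1, scaled by gene length, was 1.90, 1.13 and 2.34 in WT hearts against 2.43, 1.12 and 2.06 in Pontin cTG. It thus ranged about as widely among WT hearts as among Pontin cTG hearts, and was lowest in replicate 2 of each group. The same 2 libraries had the highest summed fibroblast markers, 17030 and 19080 normalised counts against 10320 to 12690 in the other libraries. They also had the highest summed cardiomyocyte markers, 718300 and 661800 against 595700 to 629700. The endothelial sum was 14120 in Pontin cTG replicate 2 but 11540 in WT replicate 2. The part of these differences in the ratio was not tested. On the log2 scale the ratio differed by 0.053 between genotypes (two-sided exact permutation test, p = 0.80). That difference turned negative, to -0.25, without WT replicate 2.

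**Figure D3:**
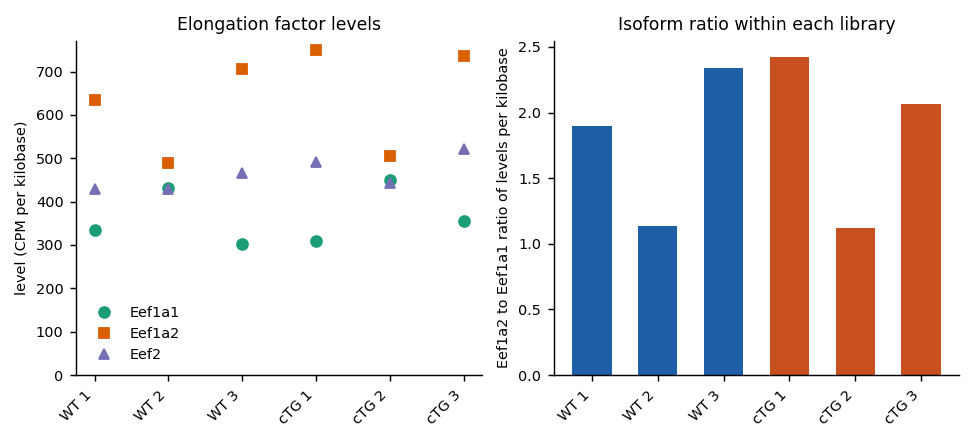
Left, levels of Eef1a1, Eef1a2 and Eef2 in CPM per kilobase (vertical axis) in each of the 6 libraries. Right, the ratio of Eef1a2 to Eef1a1 in each library, with WT in blue and Pontin cTG in orange. The ratio is 1.13 and 1.12 in replicate 2 of the groups and between 1.90 and 2.43 in the other libraries.

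Eef2, which translocates the ribosome, had 20090, 20140 and 21810 normalised counts in WT hearts against 22980, 20740 and 24380 in Pontin cTG. Pontin cTG replicate 2 lay among the WT values, and the log2 fold change was 0.13 (SE 0.13). The subunits of the eEF1A exchange factor are Eef1b2, Eef1d and Eef1g. Eef1d had 1471, 1504 and 1473 in WT hearts against 1543, 1957 and 1699 in Pontin cTG, at a log2 fold change of 0.22 (SE 0.14). The WT hearts were almost equal, and Pontin cTG replicate 2 stood highest. Eef1b2 and Eef1g, as well as Eef1e1, a part of the multisynthetase complex, had log2 fold changes of 0.15, 0.096 and 0.0096, with overlapping groups. All 7 genes grouped here as elongation factors by symbol, Eef1e1 among them, had a positive log2 fold change (median 0.12), and 0 passed the test. Only 5 of the 7 were positive in limma-voom, with the trend on gene length removed, or without WT replicate 2 or 3.

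The 6 tested enzymes that modify the elongation factors had 5 positive and 1 negative log2 fold changes (median 0.087), and 0 passed the test. Without Pontin cTG replicate 2, or with the trend on gene length removed, 3 were positive and 3 negative (medians 0.0022 and 0.0050). Eef1akmt1, a lysine methyltransferase of eEF1A, had 278, 267 and 256 normalised counts in WT hearts against 282, 310.0 and 305 in Pontin cTG (log2 fold change 0.16, SE 0.12). The groups did not overlap, but the lowest Pontin cTG heart lay close to the highest WT heart. Eef2k, the kinase that inhibits eEF2, had 515, 389 and 516 in WT hearts against 507, 402 and 481 in Pontin cTG. Its groups overlapped fully, at a log2 fold change of -0.033 (SE 0.16) that became positive without Pontin cTG replicate 2 (0.060).

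Eif1, which keeps the scanning ribosome from starting at wrong codons (chromosome 11, from 100319885 to 100322096), had the largest positive log2 fold change. Its normalised counts were 5861, 4801 and 6134 in WT hearts against 6715, 6238 and 7233 in Pontin cTG, which gave a log2 fold change of 0.27 (SE 0.15). WT replicate 2 was the lowest heart, and Pontin cTG replicate 2 lay just above WT replicate 3. Eif1ax, the X-linked gene of eIF1A, had 1110, 1091 and 1042 in WT hearts against 934, 686 and 1155 in Pontin cTG (log2 fold change -0.23, SE 0.18). Pontin cTG replicate 2 had the lowest and replicate 3 the highest value. Eif1a, its autosomal relative, had 279.7, 339 and 272 in WT hearts against 274, 261 and 256 in Pontin cTG, at a log2 fold change of -0.17. Eif5, the GTPase-activating protein of eIF2, had 3009, 2460 and 2359 in WT hearts against 2411, 1967 and 2768 in Pontin cTG, and its log2 fold change of -0.13 was smaller than its standard error of 0.17. Of the 7 tested factors of start codon selection, 4 had positive and 3 negative values.

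For eIF2 itself, the α subunit that stress kinases phosphorylate, Eif2s1, had 631, 664 and 692 normalised counts in WT hearts against 645, 619.9 and 697 in Pontin cTG. The groups were interleaved (log2 fold change -0.018, SE 0.12). Of the 5 subunits of the exchange factor eIF2B, Eif2b2, Eif2b3, Eif2b4 and Eif2b5 had log2 fold changes of 0.17, 0.18, 0.20 and 0.076, and Eif2b1 had -0.018. In each subunit the groups overlapped. Eif2b5, the catalytic subunit, had 715, 685 and 817 in WT hearts against 722, 821 and 793 in Pontin cTG. Eif2d, which can deliver initiator tRNA without eIF2, had 427, 375 and 416 in WT hearts against 434, 431 and 447 in Pontin cTG (log2 fold change 0.11, SE 0.12). Its groups were narrowly separated, and the Pontin cTG hearts varied little.

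The γ subunit of eIF2 is encoded by Eif2s3x on the X and Eif2s3y on the Y chromosome, whose coding sequences were 86.3% identical. Eif2s3x had 876, 919 and 960.2 normalised counts in WT hearts against 876, 438 and 916 in Pontin cTG. Pontin cTG replicate 2 was low, and the other hearts were close together. The log2 fold change of Eif2s3x was -0.31 (SE 0.25). Eif2s3y had 303, 932 and 734 in WT hearts against 662, 835 and 764 in Pontin cTG (log2 fold change 0.20, SE 0.33). Here the low heart was WT replicate 1. The Y-linked genes Ddx3y, Uty and Kdm5d had 1435, 325 and 178 normalised counts in that heart, against 954 to 1524, 233 to 360.4 and 193 to 291 in the other libraries, so that only Kdm5d shared the lowest place with Eif2s3y. The sum of both γ genes ran from 1178 in WT replicate 1 to 1851 in WT replicate 2 and from 1273 to 1680 in Pontin cTG hearts.

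**Figure D4:**
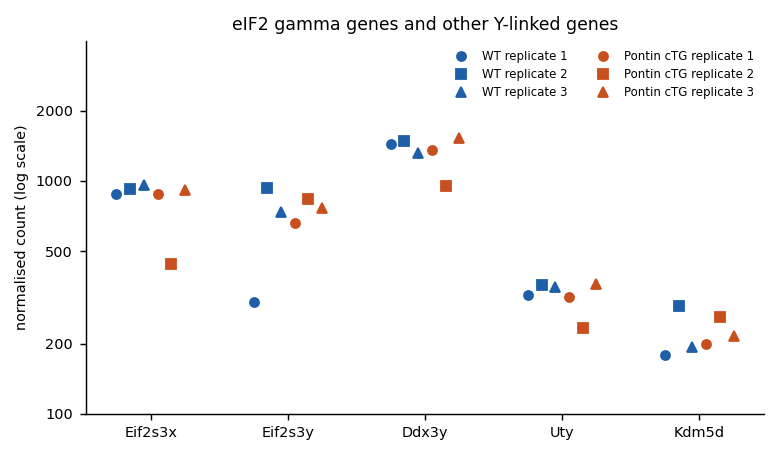
Normalised counts on a log scale (vertical axis) of the eIF2 γ genes Eif2s3x and Eif2s3y and of 3 other Y-linked genes in each of the 6 libraries. Blue points are WT and orange points Pontin cTG hearts, with one shape per replicate number. Eif2s3x is low in Pontin cTG replicate 2 (438) and Eif2s3y in WT replicate 1 (303).

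In the cap-binding group, 5 of 11 factors had positive and 6 negative log2 fold changes (median -0.059), and 0 passed the test. Eif4e, the cap-binding protein, had 2289, 2173 and 2485 normalised counts in WT hearts against 2270, 1778 and 2335 in Pontin cTG (log2 fold change -0.12, SE 0.15). Eif4g1, the scaffold that links the cap to eIF3, had 7604, 6351 and 7993 in WT hearts against 7958, 5092 and 7012 in Pontin cTG. The lowest value of both belonged to Pontin cTG replicate 2. Eif4g2, a relative of Eif4g1 that works without cap binding, was the most abundant of the group by the gene lengths of the deposited table (112 CPM per kilobase). Its level per kilobase of a coding transcript was not obtained, so its rank by that measure is not known. Eif4g2 had 17230, 16660 and 16690 in WT hearts against 17150, 10960 and 17460 in Pontin cTG. The WT hearts and the other Pontin cTG hearts were nearly equal. Without Pontin cTG replicate 2, the log2 fold changes of Eif4g1, Eif4g2 and Eif4e3, another cap-binding protein, changed from -0.13, -0.15 and -0.17 to 0.033, 0.037 and 0.046, and the median of the 11 factors became 0.033.

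Eif4h, a partner of the helicase, had 1689, 1563 and 1832 normalised counts in WT hearts against 1956, 1796 and 2152 in Pontin cTG. Only Pontin cTG replicate 2 lay within the WT range, and the log2 fold change was 0.22 (SE 0.14). Eif4a1 and Eif4a2 encode the DEAD-box helicase that unwinds mRNA leaders. The normalised counts of Eif4a1 were 2138 ± 213 in WT hearts against 2159 ± 140.5 in Pontin cTG, and those of Eif4a2 were 4558 ± 339.9 against 4919 ± 666 (mean ± SD, n = 3 each). In each library Eif4a2 was the higher of the pair per kilobase, by 1.53 to 2.19 times with the lengths of the table. Per kilobase of the transcript with the longest coding sequence, the mean levels were further apart, 86.0 CPM for Eif4a1 and 274 CPM for Eif4a2. The ratio differed by 0.087 between the groups on the log2 scale, less than the SD of either group.

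Among the proteins that hold back eIF4E, Eif4ebp1 had 899.7, 867 and 1085 normalised counts in WT hearts against 1136, 1064 and 948 in Pontin cTG (log2 fold change 0.14, SE 0.14). Its paralog Eif4ebp2 had 1837, 1462 and 1999 in WT hearts against 2070, 1222 and 2062 in Pontin cTG, at a log2 fold change of 0.015 (SE 0.22). The replicate 2 libraries held the lowest values of Eif4ebp2 in both groups. Its log2 fold change was 0.23 without Pontin cTG replicate 2.

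Of the remaining factors, Eif5a, which relieves ribosome stalling and carries the modified amino acid hypusine, had 3852, 3680 and 3830 normalised counts in WT hearts against 4147, 3761 and 4368 in Pontin cTG (log2 fold change 0.11, SE 0.13). Pontin cTG replicate 2 was within the WT range. Its paralog Eif5a2 had 46.2, 56.1 and 39.1 in WT hearts against 33.2, 39.4 and 39.0 in Pontin cTG. That was the lowest log2 fold change of the 62 tested factors, -0.34, at the lowest level per kilobase among them, with a standard error of 0.26. The log2 ratio of Eif5a2 to Eif5a differed by -0.44 (two-sided exact permutation test, p = 0.20). Over the 8 ratios of paralogs that were compared, p ran from 0.20 to 0.80 and the adjusted p was 0.80 for each. Eif6, which keeps free large subunits from joining, had 273, 278 and 268 in WT hearts against 259, 335 and 316 in Pontin cTG (log2 fold change 0.15, SE 0.14).

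The median coefficient of variation of the factors was 7.39% among WT and 9.56% among Pontin cTG hearts, beside 11.6% and 18.3% over all genes tested. The genes were not matched to the factors in level, so the lower values cannot be read as a trait of the factors. In single factors the coefficient ran up to 49.0% in WT (Eif2s3y) and 36.6% in Pontin cTG hearts (Eif3j2). The fold changes also went with gene length: over the 62 factors the Spearman correlation of the log2 fold change with gene length was -0.38, and over the 13888 genes it was -0.31. These are correlations across genes of the same 6 libraries, given as a description. For the deviations of Pontin cTG replicate 2 the correlation over the factors was -0.41, and in the other libraries it lay between -0.027 and 0.24. Over all genes tested it was -0.20 in Pontin cTG replicate 2 and -0.16 in Pontin cTG replicate 3. In the remaining libraries it lay between 0.082 and 0.18 over all genes tested. With each library's trend on gene length removed, the median log2 fold change of the factors was 0.027 instead of 0.069.

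**Figure D5:**
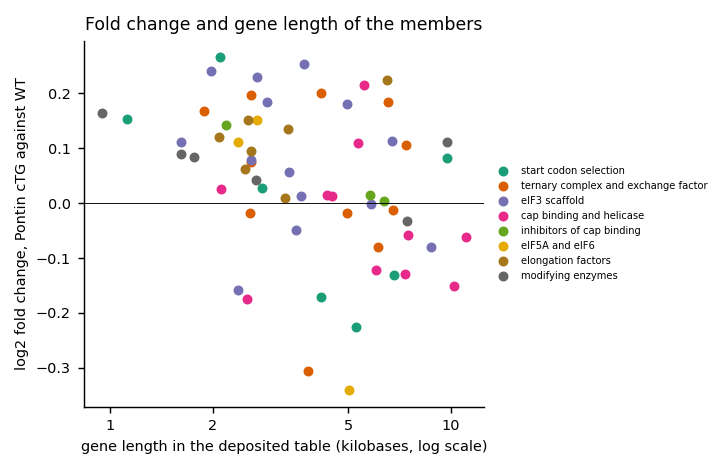
Log2 fold change of Pontin cTG against WT hearts (vertical axis) against gene length in kilobases on a log scale (horizontal axis) for the 62 tested factors, coloured by role. Short genes lie higher than long genes on average (Spearman correlation -0.38).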

How the data were processed

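Heart RNA of 6 mice was sequenced, and the authors deposited 1 table of raw read counts per Ensembl gene, with 0 sample columns left unmatched and 0 rows without a gene name. How the counts were made is given differently by the sources: the submitters' processing notes name fastp, HISAT2, featureCounts, DESeq2 and GRCm39/mm39, while the study's methods name Trimmomatic, STAR, mm10 and Gencode M25. Strandedness is not given in the sources used here. The methods mention an excluded outlier without naming it or its experiment, while the study's statistics section says that no data were left out. All 6 libraries were used here.

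After filterByExpr (minimum count 10) and TMM scaling, the genotypes were compared by quasi-likelihood in edgeR 4.0.16 (R 4.3.3) without further terms, and p was adjusted by Benjamini-Hochberg over 13888 genes. Normalised counts are counts over TMM-scaled library sizes, multiplied by their geometric mean, and levels per kilobase use the table's gene length. Ratios used a pseudocount of 0.5. Alternatives included DESeq2 1.42.0, limma-voom (limma 3.58.1), other scalings and filters, a replicate block, an offset for gene length and each library left out. Positions are from GENCODE M21 (GRCm38), matched by Ensembl identifier, and coding sequences from its transcripts. The scripts were tested on simulated data. The precision is limited by 3 hearts per group.

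The genes, their roles and the related lists were chosen with earlier results of these data known. The factors named are the 5 with the largest and the 5 with the smallest log2 fold change among those with a mean log2 CPM of 0 or more, the most abundant of each role, those whose groups did not overlap, and a set of 16 core factors. Factors outside this rule that were named after their values were seen are Eif2s3y, Eif4h, Eif3a, Eif3c, Eif3d, Eif3f, Eif3j1, Eif3j2, Eef1e1, Eef1b2, Eef1g and the eIF2B subunits other than Eif2b5.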

Additional observations from a re-analysis of the deposited data

How the results depend on the processing

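None of the 62 factors reached an adjusted p under 0.05 in edgeR or in any of the alternatives, and the smallest adjusted p of a named factor was 0.844. Over all genes, the number called was 1 with DESeq2, 3 without a filter on low counts, 3 with limma-voom and 0 to 3 when single libraries were left out, with the 3 found without Pontin cTG replicate 2. The number of factors at an unadjusted p under 0.05 was 2 with library size alone (Eif3i and Eif1), 1 with at least 10 counts in every library (Eif3i), 3 with limma-voom (Eif3i, Eif4h and Eif1) and 0 to 3 when single libraries were left out (3 without Pontin cTG replicate 2, and 1, Eif1ax, without Pontin cTG replicate 3). Among these alternatives, the share of all genes at that threshold was computed only for the fit that left out Pontin cTG replicate 2. It was 4.91%, against 4.84% of the factors, so the factors showed no excess there. For the other alternatives no such share was computed, so their numbers cannot be read as an excess. The median log2 fold change of the factors was 0.027 with the gene-length trend removed and 0.037 to 0.080 without single libraries. Library size alone moved the median of all genes to 0.031 and that of the factors to 0.10. A pyrimidine tract was found in 16 factors within 10 bases of the start.

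The replicate numbers were not taken as pairs: the deviations of same-numbered libraries correlated at 0.077, 0.43 and 0.19, and only the replicate 2 libraries correlated best with each other. With the replicate block, 0 factors were called and the median was 0.066. The block turned the log2 fold change of Eif4ebp2 to -0.013.

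Of 510 alternative values of the 30 named factors, 24 changed sign, in 10 factors, each with a log2 fold change smaller than its standard error in edgeR. With limma-voom, Eef1a1 became -0.013, Eif2s1 0.019 and Eif4a1 -0.032. With the gene-length trend removed, Eef1a1 became -0.0087 and Eef2k 0.028, and with library size alone Eif2s1 became 0.0095. When single libraries were left out, the log2 fold changes ran from -0.099 to 0.22 for Eef1a1, -0.016 to 0.28 for Eef1a2, -0.16 to 0.060 for Eef2k, -0.066 to 0.023 for Eif2s1, -0.057 to 0.066 for Eif4a1, -0.0027 to 0.19 for Eif4a2, -0.33 to 0.046 for Eif4e3, -0.10 to 0.23 for Eif4ebp2, -0.27 to 0.033 for Eif4g1 and -0.26 to 0.037 for Eif4g2, and the difference in the log2 ratio of Eef1a2 to Eef1a1 ran from -0.25 to 0.39. The cause of these changes was not tested.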

Other observations

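The genes that regulate or assist the factors were described in the same way. Of 49 genes in 6 related lists, 48 were tested and 0 passed an adjusted p of 0.05 or an unadjusted p under 0.05 in edgeR. Their log2 fold changes were positive in 22 and negative in 26 genes (median -0.014), and the groups did not overlap in 5, with 3 higher (against 4.7% of all genes) and 2 lower (against 3.63%) in Pontin cTG hearts. Among the enzymes that make hypusine on eIF5A, Dohh had 117, 135 and 117 normalised counts in WT and 137, 211 and 153 in Pontin cTG hearts. Its log2 fold change of 0.44 (standard error, SE, 0.20, unadjusted p = 0.051) was the largest positive one of the 48. Dhps, the enzyme of the preceding step, had a log2 fold change of 0.20 (SE 0.16).

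Of the eIF2 kinases, Eif2ak2 (PKR), which responds to double-stranded RNA, had 269.8, 265 and 242 normalised counts in WT and 235, 230.3 and 200.1 in Pontin cTG hearts, a log2 fold change of -0.22 (SE 0.13). Eif2ak1, Eif2ak3 and Eif2ak4 had -0.10, 0.0079 and 0.19. Impact, an inhibitor of the Gcn2 kinase encoded by Eif2ak4, had 263, 296 and 281 in WT but 20.5, 327 and 13.9 in Pontin cTG hearts. It was thus low in 2 of the 3 Pontin cTG hearts and above the WT range in the other. Mtor, the kinase that signals nutrient and growth state to translation, had 879.9, 996 and 884 in WT and 985, 693 and 598 in Pontin cTG hearts (log2 fold change -0.28, SE 0.19).

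The mitochondrial translation factors act in the organelle and are encoded in the nucleus. Of 10 tested, 6 had positive and 4 negative log2 fold changes (median 0.043). Tufm, the mitochondrial counterpart of eEF1A, had 2814, 2604 and 2913 normalised counts in WT and 3141, 2986 and 3123 in Pontin cTG hearts, without overlap (log2 fold change 0.15, SE 0.13). In the mitochondrial elongation factors Gfm1 and Gfm2, Pontin cTG replicate 2 was the lowest heart, and the log2 fold changes were -0.13 and -0.14. Of the termination and recycling factors, Etf1, Gspt1 and Abce1 had log2 fold changes of -0.17, -0.28 and -0.25, with the lowest value of each in Pontin cTG replicate 2.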
